A study of Mus musculus with 12 samples.

Results

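Genes named Gpr followed by a number encode G-protein-coupled receptors, or proteins once taken for them, that were numbered because no ligand was known when they were cloned. The set described here holds each gene whose symbol is Gpr, a number and at most 1 letter, read from probe sets with exactly 1 symbol, with Gpr83 left out. It has 58 genes of the 18193 with a value, measured by 89 of 45101 probe sets. Of these genes 38 had 1 probe set and 20 had several, up to 5 for Gpr107, which were averaged. The label "orphan" holds only in part, because ligands have since been described for a number of them.

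The study profiled 4 thymocyte subsets of untreated C57BL/6 mice, with RNA taken straight after isolation and no culture in between. DN cells lacked CD4, CD8 and TCRb, DP cells carried CD4 and CD8, CD4SP cells were CD4+CD8- with high TCRb, and CD8SP cells were CD4-CD8+ with high TCRb. Each subset was measured on 3 Affymetrix arrays, 12 in all. The labels give no age or sex and do not tell whether a subset's 3 arrays stand for different animals. Every p-value here therefore rests on array-to-array spread, which may be technical.

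Each value is a log value, read as log2, set against the average DP array for the same probe set, so DP lies at 0 for each gene and 1 unit is a 2-fold difference. The level of a gene against the background of the array is lost in these values. A gene that is off in all subsets and a gene that is on at the same level in all of them cannot be told apart, and no gene's level can be set against another's. Differences are given ± the standard error of a limma fit over all 18193 genes, and a difference was called at an adjusted p under 0.05 after Benjamini-Hochberg adjustment over all genes. "Rose" and "fell" are used of called differences.

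Most of these receptors span the membrane several times and signal through heterotrimeric G proteins, which raise or lower cyclic AMP, release calcium or steer the cytoskeleton. Arrestins and receptor kinases end the signal. In lymphocytes they are best known as guides of position: Gpr183 follows oxysterols in lymphoid tissue, and receptors for lysophospholipids hold or release cells at defined sites. Others read acid, fatty acids or peptides. In the thymus, cells move from the cortex as DP to the medulla as CD4SP or CD8SP, and then leave for the blood.

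The 5 promoters printed next belong to the 3 lipid receptors, the proton sensor and the leukocyte receptor with the largest differences in their groups, and are shown so that the upstream sequence can be read beside the values that follow. Each is the 250 bases before the RefSeq start site in GRCm38.p6, written 5′ to 3′ on the strand of the gene. Capitals mark matches, on either strand, to 6 short letter strings searched for: TGTGGT (RUNX), CCACCC (KLF), GTAAACA (FOXO), CAGCTG (E-box), AGGAAG (ETS) and CTTTGA (TCF/LEF).
Gpr18, chr14:121915889-121916138, minus strand: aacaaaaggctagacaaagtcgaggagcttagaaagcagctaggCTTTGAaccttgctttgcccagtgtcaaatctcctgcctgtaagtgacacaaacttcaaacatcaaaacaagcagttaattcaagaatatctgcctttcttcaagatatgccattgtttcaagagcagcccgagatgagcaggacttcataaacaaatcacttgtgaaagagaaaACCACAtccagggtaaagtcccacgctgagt
Gpr183, chr14:121965194-121965443, minus strand: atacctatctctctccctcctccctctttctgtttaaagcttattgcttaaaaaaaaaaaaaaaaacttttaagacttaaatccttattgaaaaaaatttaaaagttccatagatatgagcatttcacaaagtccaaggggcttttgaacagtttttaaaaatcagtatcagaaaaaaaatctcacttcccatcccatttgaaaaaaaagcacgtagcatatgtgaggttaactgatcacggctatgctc
Gpr65, chr12:98268385-98268634, plus strand: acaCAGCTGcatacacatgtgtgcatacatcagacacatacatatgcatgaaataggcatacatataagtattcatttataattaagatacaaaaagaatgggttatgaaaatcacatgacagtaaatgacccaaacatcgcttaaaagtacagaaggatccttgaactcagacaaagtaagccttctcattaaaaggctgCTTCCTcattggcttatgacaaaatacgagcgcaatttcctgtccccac
Gpr174, chrX:107284096-107284345, plus strand: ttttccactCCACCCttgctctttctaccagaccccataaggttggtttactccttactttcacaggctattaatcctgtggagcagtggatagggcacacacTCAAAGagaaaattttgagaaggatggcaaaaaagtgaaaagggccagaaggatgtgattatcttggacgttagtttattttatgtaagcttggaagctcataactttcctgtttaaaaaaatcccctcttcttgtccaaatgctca
Gpr25, chr1:136260927-136261176, minus strand: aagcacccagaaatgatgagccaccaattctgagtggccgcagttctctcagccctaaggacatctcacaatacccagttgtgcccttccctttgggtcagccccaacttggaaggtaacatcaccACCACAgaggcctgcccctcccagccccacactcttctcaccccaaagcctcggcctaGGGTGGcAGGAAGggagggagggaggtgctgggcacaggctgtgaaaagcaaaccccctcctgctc
The Gpr18 window holds the RUNX string 31 bases and the TCF/LEF string 206 bases before the start. The Gpr65 window holds the E-box string at 247 and the ETS string at 49 bases, and the Gpr174 window holds the KLF string at 241 and the TCF/LEF string at 147 bases. In the Gpr25 window the RUNX string lies at 124, the KLF string at 66 and the ETS string at 59 bases. None of the 6 strings is in the Gpr183 window, which says only that these letters are not there. These strings are common: RUNX, KLF, FOXO, E-box, ETS and TCF/LEF strings occur in 14%, 28.1%, 3.17%, 13%, 29.5% and 13.8% of all 32851 promoter windows of this length. Among 59 windows of the 44 members matched in the RefSeq table they occur in 22%, 42.4%, 3.39%, 22%, 28.8% and 16.9%. The windows differ in base composition, with a GC content of 32% for Gpr183, 36.8% for Gpr65, 40.4% for Gpr174, 42.4% for Gpr18 and 58.8% for Gpr25, against a median of 52.4% over all windows. A match describes letters and not a bound factor.

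Over the 4 subsets, 25 of the 58 members differed by the F test of the limma fit, and 13 of these also had group means at least 2-fold apart. The same calls were made for 56.7% and 19.6% of all genes, so the members' shares of 43.1% and 22.4% lie below and near the background. Members differed in how far they moved: the range of the 4 group means went from 0.11 to 8.34 log2 units. Of the 25 called members, 10 had their highest mean in CD4SP, 8 in CD8SP, 4 in DP and 3 in DN. Among all called genes 22.4% were highest in CD4SP, 17.9% in CD8SP, 27.6% in DP and 32.2% in DN. The lowest mean lay in DN for 10 members, in DP for 10, in CD8SP for 3 and in CD4SP for 2, against 29.9%, 27.2%, 24.2% and 18.8% of all called genes.

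**Figure D1:**
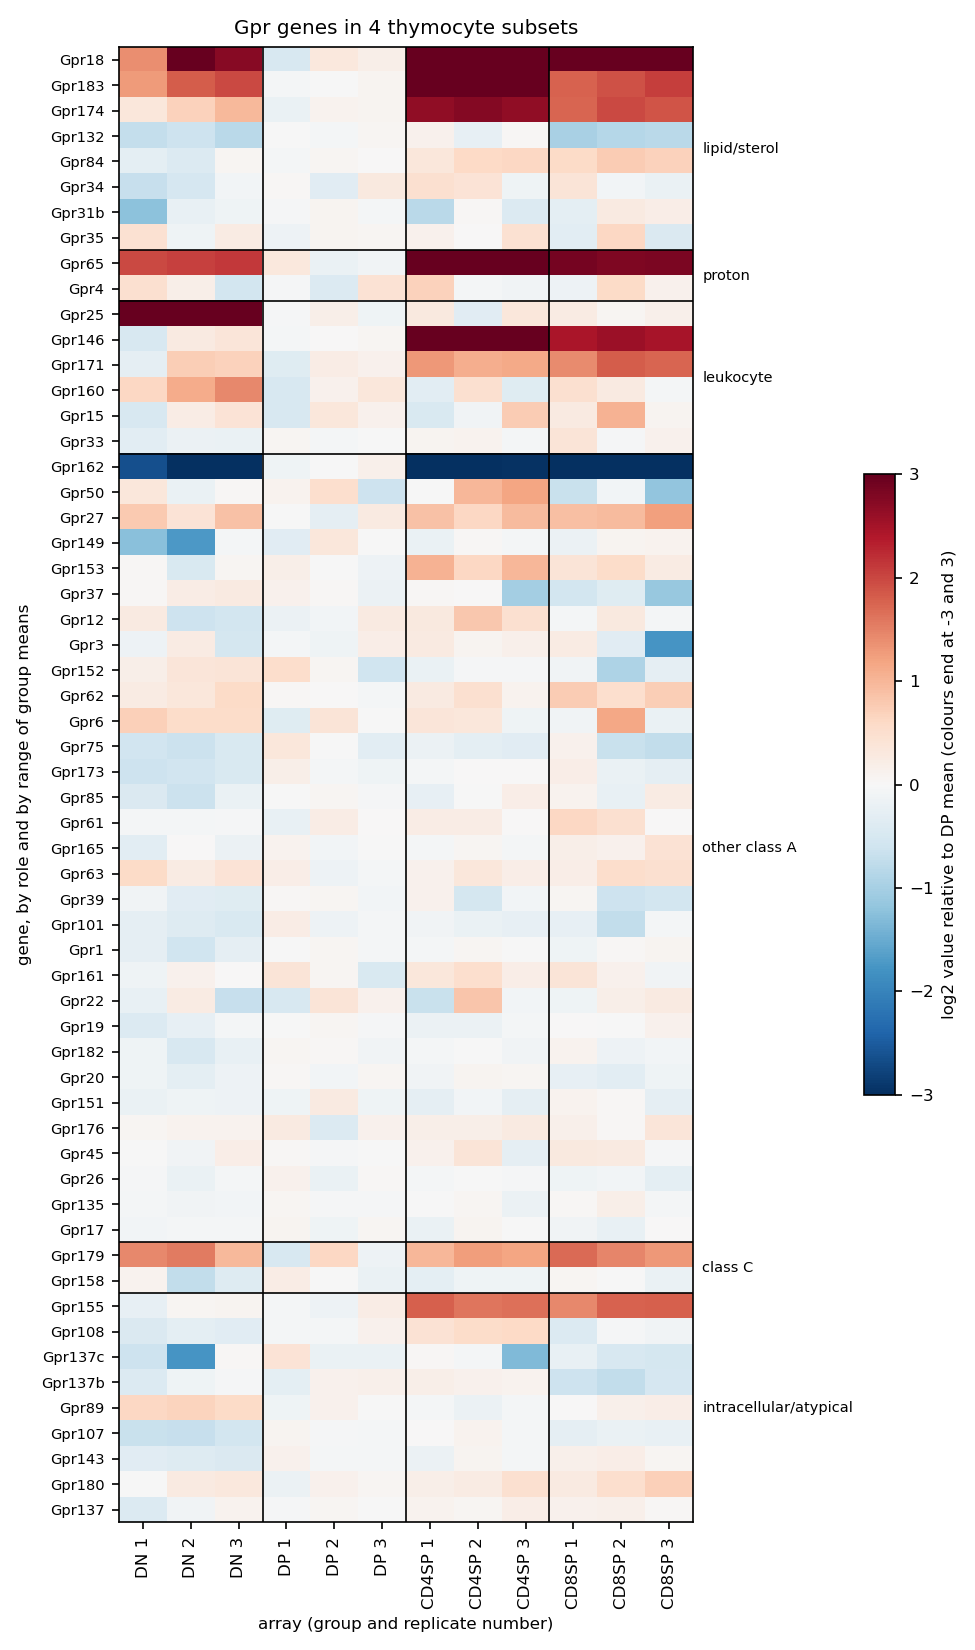
Log2 value relative to the DP mean for the 58 Gpr genes (rows, by role and then by range) on each of the 12 arrays (columns, by subset and replicate number), with colours ending at -3 and 3. A few rows carry most of the colour: Gpr25 is high in DN alone, Gpr162 is low outside DP, and Gpr18, Gpr183, Gpr174, Gpr65 and Gpr146 are high in both single-positive subsets.

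The sorted genes followed the gates: Cd4, Cd8a and Cd8b1 rose from DN to DP, Cd8a fell by 6.53 in CD4SP and Cd4 fell by 8.90 in CD8SP. Within DN, replicate 1 had the least negative values: -3.88 for Cd4, where replicates 2 and 3 read -6.49 and -5.29, and -2.63 for Cd8a, where they read -4.59 and -3.94. Without that array DP minus DN was -2.92 for Gpr18, -1.90 for Gpr183, -0.83 for Gpr174, -2.09 for Gpr65 and -8.45 for Gpr25, each still called. The DN gate removes cells by CD4, CD8 and TCRb only, and genes of some other cell types were high in DN. The mean of 7 NK and innate lymphoid genes was 1.35, 2.62 and 2.78 on the 3 DN arrays, that of 8 B cell genes 0.45, 1.89 and 1.69, and that of 12 myeloid and dendritic genes 1.15, 2.01 and 2.29. Neutrophil genes, 7 in number, averaged 4.45, 5.09 and 6.42, and 4 gamma delta T cell genes averaged 2.22, 2.67 and 2.68. From DN to DP, 7 of 7 neutrophil genes, 6 of 7 NK genes, 5 of 12 myeloid genes, 3 of 8 B cell genes and 3 of 4 gamma delta genes fell. Among the gamma delta genes Trgv4 stood highest in DN, at 6.56, and Il17a rose to DP (0.28 ± 0.10, limma adjusted p = 0.0486). Lists of 3 erythroid genes (-0.56 to -0.15) and 8 thymic stroma genes (-0.43 to 0.10) were not high on the DN arrays. DN replicate 1 was the lowest DN array for each of these lists. In CD8SP the NK genes averaged 2.42 to 2.82 against 0.58 to 0.85 in CD4SP. Nkg7, Klrd1 and Eomes, at 7.52, 5.90 and 4.73 in CD8SP, carried that mean, while the other 4 NK genes were not called between the subsets and the list's median difference was -0.06. Regulatory T cell genes averaged 0.43 to 0.55 in CD8SP against 1.06 to 1.16 in CD4SP: 3 of 5 were higher in CD4SP, Ikzf2 was lower (-0.59, limma adjusted p = 0.0197) and Foxp3 was not called (adjusted p = 0.215). In these bulk samples fewer cells of a type and less RNA per cell cannot be told apart, and the part of other cells in the DN and single-positive values of the receptors was not tested.

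Gpr18, from the group of 8 receptors for lipids and sterols, had the largest rise of any member from DP to each single-positive subset. Gpr65 and Gpr146, which are in other groups, rose more than Gpr174 in CD4SP and more than Gpr183 in CD8SP. Gpr18, Gpr183, Gpr174 and Gpr84 rose in both subsets, each against the same DP arrays. Gpr132 fell in CD8SP, and the other 3 receptors of this group passed the test in no comparison. From DN to DP, Gpr18, Gpr183 and Gpr174 fell and Gpr132 rose.

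Gpr18 has been linked to N-arachidonyl glycine and a resolvin, pairings that are disputed, and is expressed in lymphoid tissue. Its log2 value was 1.40, 3.13 and 2.72 in DN, -0.49, 0.32 and 0.17 in DP, 5.68, 5.68 and 5.93 in CD4SP and 5.31, 5.67 and 5.89 in CD8SP. The single-positive arrays lay above all DN arrays, which lay above all DP arrays, and CD4SP and CD8SP overlapped. Against DP the difference was 5.76 ± 0.38 in CD4SP (54.3-fold, limma adjusted p = 9.38e-07) and 5.63 ± 0.38 in CD8SP (49.4-fold, adjusted p = 9.97e-07). From DN to DP it fell by 2.42 on the log2 scale (SE 0.38, adjusted p = 4.97e-04). Within DN the values spanned more than in any other subset, and the lowest was on replicate 1, the array that was also lowest for the B cell and NK lists. The part of other cells in the DN values of Gpr18 was not tested.

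Gpr183, also called EBI2, is the oxysterol receptor that positions B cells, T cells and dendritic cells. Its values were 1.27, 1.82 and 1.98 in DN, -0.07, -0.02 and 0.09 in DP, 3.60, 3.50 and 3.61 in CD4SP and 1.78, 1.90 and 2.08 in CD8SP. CD4SP stood above every other array, DP stood below every other, and DN and CD8SP overlapped. The rise from DP was 3.57 ± 0.16 in CD4SP (11.9-fold, limma adjusted p = 5.98e-08) and 1.92 ± 0.16 in CD8SP (3.78-fold, adjusted p = 4.42e-06). The fall from DN to DP was -1.69 ± 0.16 (adjusted p = 1.30e-05). Its 2 probe sets differed in size: one read 3.20 in DN, 5.77 in CD4SP and 3.55 in CD8SP, the other 0.18, 1.37 and 0.29. On the latter alone the DN and CD8SP differences from DP were not called, with adjusted p of 0.251 and 0.0692 over probe sets, and CD4SP stayed above CD8SP on both.

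Gpr174 is a lysophosphatidylserine receptor of lymphocytes. Its values were 0.34, 0.70 and 0.97 in DN, -0.19, 0.10 and 0.09 in DP, 2.65, 2.76 and 2.66 in CD4SP and 1.75, 1.99 and 1.88 in CD8SP. The 4 subsets did not overlap, in the order DP, DN, CD8SP, CD4SP. Against DP, CD4SP was higher by 2.69 ± 0.15 (6.46-fold, limma adjusted p = 2.76e-07) and CD8SP by 1.88 ± 0.15 (3.67-fold, adjusted p = 3.36e-06), and DN was higher by 0.67 (DP minus DN -0.67 ± 0.15, adjusted p = 0.00471). Another lysophosphatidylserine receptor of lymphocytes, P2ry10, went the other way, with differences from DP of -1.76 ± 0.09 in CD4SP and -1.32 ± 0.09 in CD8SP (adjusted p = 1.77e-07 and 1.27e-06). Gpr34, which binds the same lipid and is known from microglia and other myeloid cells, passed no test. It read -0.69, -0.50 and -0.09 in DN, 0.03, -0.33 and 0.30 in DP, 0.47, 0.41 and -0.14 in CD4SP and 0.39, -0.09 and -0.21 in CD8SP, with overlap between DN and each other subset.

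Gpr132 is a stress-induced receptor of lymphocytes and macrophages for oxidised fatty acids. It read -0.71, -0.63 and -0.81 in DN, -0.02, -0.05 and 0.07 in DP, 0.12, -0.25 and 0.03 in CD4SP and -0.97, -0.86 and -0.81 in CD8SP. DP and CD4SP overlapped and lay above DN and CD8SP on every array. The rise from DN to DP was 0.72 ± 0.10 (limma adjusted p = 2.84e-04), the fall from DP to CD8SP -0.88 ± 0.10 (adjusted p = 5.88e-05), and CD4SP minus DP was -0.04 ± 0.10 (adjusted p = 0.834). Both of its probe sets gave these calls. Gpr84, a receptor for medium-chain fatty acids on myeloid cells, moved less. It read -0.29, -0.40 and 0.07 in DN, -0.06, 0.05 and 0.00 in DP, 0.35, 0.59 and 0.61 in CD4SP and 0.57, 0.76 and 0.68 in CD8SP, and every single-positive array lay above every DN and DP array. The rises from DP were 0.52 ± 0.12 in CD4SP (adjusted p = 0.00791) and 0.67 ± 0.12 in CD8SP (adjusted p = 0.00137).

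Gpr35, a receptor for tryptophan products and lysophosphatidic acid, and Gpr31b, a receptor for a hydroxylated product of arachidonic acid, passed no test. Gpr35 read 0.45, -0.13 and 0.25 in DN, -0.16, 0.09 and 0.07 in DP, 0.12, 0.00 and 0.46 in CD4SP and -0.31, 0.61 and -0.43 in CD8SP. Gpr31b read -1.24, -0.22 and -0.13 in DN, -0.04, 0.09 and -0.05 in DP, -0.82, 0.04 and -0.41 in CD4SP and -0.29, 0.28 and 0.19 in CD8SP. In both the spread within a subset was as large as the distance between subsets, and the 3 DN arrays of Gpr31b reached from -1.24 to -0.13.

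The proton-sensing receptors measured under a Gpr name are Gpr65 and Gpr4. Gpr65, also TDAG8, was first found as a gene induced in dying T cells and raises cyclic AMP in acid. It read 1.97, 2.06 and 2.11 in DN, 0.31, -0.20 and -0.11 in DP, 3.80, 3.18 and 3.34 in CD4SP and 2.87, 2.81 and 2.83 in CD8SP. No subsets overlapped, with DP lowest, then DN, CD8SP and CD4SP. The differences from DP were 3.44 ± 0.16 in CD4SP (10.9-fold, limma adjusted p = 9.30e-08) and 2.84 ± 0.16 in CD8SP (7.14-fold, adjusted p = 3.33e-07), and DP minus DN was -2.05 ± 0.16 (adjusted p = 4.26e-06). Its DN values went from 1.97 to 2.11 and were lowest on replicate 1. On the same arrays the NK list went from 1.35 to 2.78 and the gamma delta list from 2.22 to 2.68, each also lowest on replicate 1. The part of other cells in the DN values of Gpr65 was not tested. Gpr4, known from blood vessel endothelium, passed no test and read 0.48, 0.17 and -0.55 in DN, -0.03, -0.41 and 0.44 in DP, 0.69, -0.07 and -0.10 in CD4SP and -0.15, 0.57 and 0.12 in CD8SP.

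**Figure D2:**
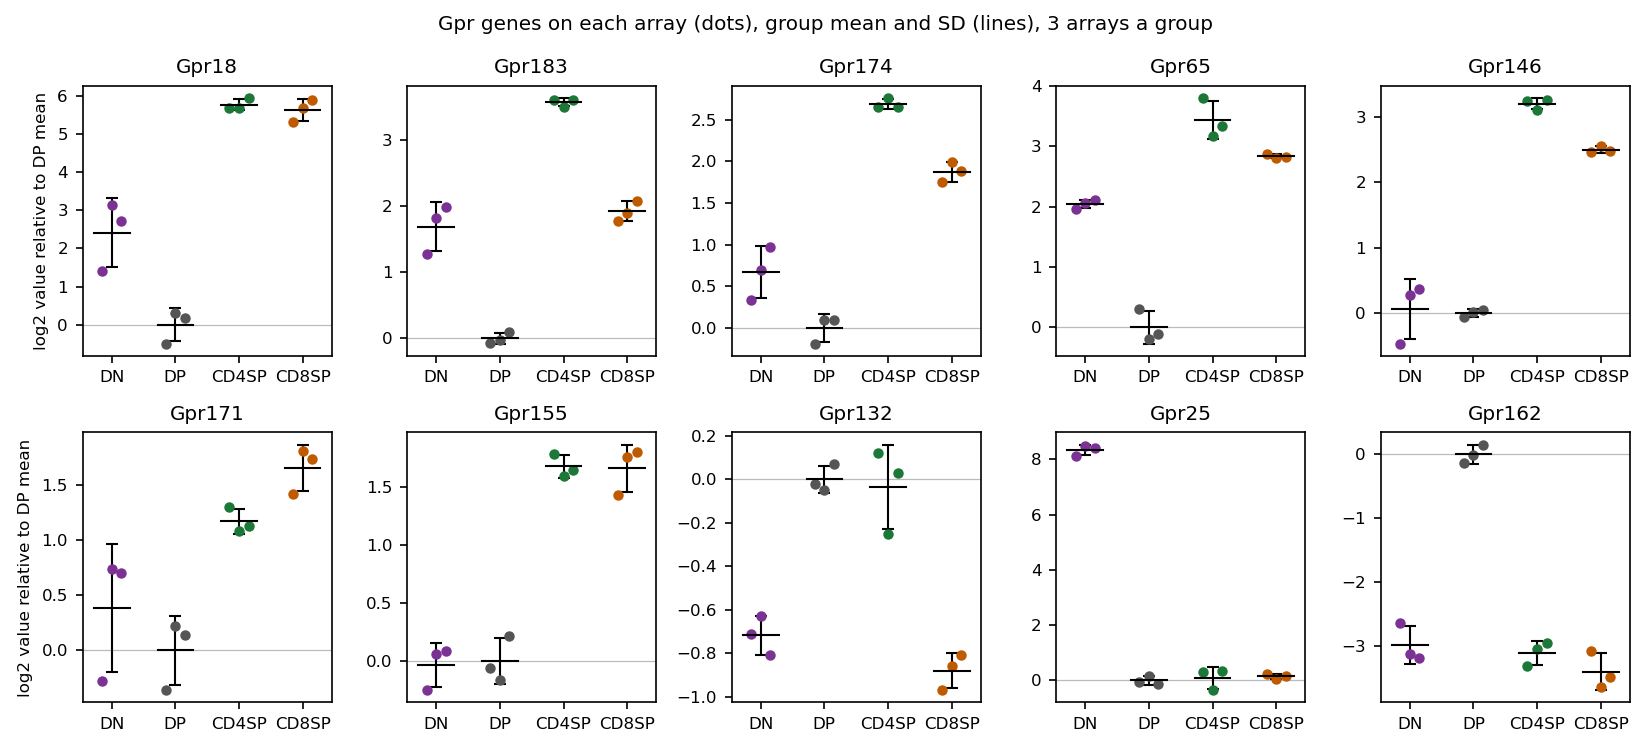
Log2 value relative to the DP mean of 10 Gpr genes on each array (dots), with the mean and SD of the 3 arrays of a subset (lines); each panel has its own scale. DP is the lowest subset for Gpr18, Gpr183, Gpr174 and Gpr65, Gpr25 stands at 8.12 to 8.49 in DN against -0.35 to 0.34 elsewhere, and Gpr162 stands at -3.65 to -2.64 outside DP.

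Of the 6 further leukocyte receptors, Gpr25 and Gpr160 fell from DN to DP, and Gpr146 and Gpr171 rose from DP to both single-positive subsets, again against the same DP arrays. Gpr25, a T cell receptor related to the gut-homing receptor Gpr15, had the largest difference of any member. It read 8.12, 8.49 and 8.40 in DN, -0.04, 0.17 and -0.13 in DP, 0.30, -0.35 and 0.34 in CD4SP and 0.25, 0.07 and 0.15 in CD8SP. DN stood far above the other subsets, which overlapped each other. DP minus DN was -8.34 ± 0.18 (323-fold, limma adjusted p = 7.53e-10), while CD4SP and CD8SP had means of 0.10 and 0.16 and were not called against DP. The DN values spanned 8.12 to 8.49 and were lowest on replicate 1. On the same arrays the neutrophil list spanned 4.45 to 6.42, the NK list 1.35 to 2.78 and the gamma delta list 2.22 to 2.68, each also lowest on replicate 1. The part of other cells in the DN values of Gpr25 was not tested. Gpr25 rests on 1 probe set, as do Gpr18, Gpr65, Gpr155, Gpr162, Gpr171 and Gpr179, among others.

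Gpr146, which has been tied to cholesterol control in the liver, read -0.47, 0.28 and 0.37 in DN, -0.06, 0.01 and 0.05 in DP, 3.24, 3.11 and 3.26 in CD4SP and 2.46, 2.56 and 2.48 in CD8SP. DN and DP overlapped, CD8SP lay well above both, and CD4SP lay above CD8SP. The rises from DP were 3.20 ± 0.18 in CD4SP (9.22-fold, limma adjusted p = 2.88e-07) and 2.50 ± 0.18 in CD8SP (5.66-fold, adjusted p = 1.57e-06), and all 4 of its probe sets gave both calls. Gpr171, a receptor for a neuropeptide that T cells also express, read -0.28, 0.74 and 0.70 in DN, -0.36, 0.22 and 0.14 in DP, 1.30, 1.08 and 1.13 in CD4SP and 1.42, 1.81 and 1.74 in CD8SP. Its single-positive arrays lay above every DN and DP array and did not overlap each other. The rises from DP were 1.17 ± 0.25 in CD4SP (adjusted p = 0.00463) and 1.66 ± 0.25 in CD8SP (adjusted p = 3.96e-04), and CD4SP minus CD8SP was -0.49 ± 0.25, which was not called (adjusted p = 0.255).

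Gpr160 read 0.62, 1.11 and 1.43 in DN, -0.48, 0.14 and 0.34 in DP, -0.32, 0.47 and -0.36 in CD4SP and 0.47, 0.27 and -0.06 in CD8SP. DN lay above all other arrays, and DP minus DN was -1.06 ± 0.29 (limma adjusted p = 0.0146), a call lost without DN replicate 3 or without DP replicate 1, with adjusted p between 0.00857 and 0.465 over all alternatives. Gpr15, which directs T cells to the colon, passed no test and read -0.47, 0.23 and 0.41 in DN, -0.49, 0.35 and 0.14 in DP, -0.46, -0.10 and 0.77 in CD4SP and 0.26, 1.04 and 0.09 in CD8SP. Gpr33, a receptor that is a pseudogene in most people, read -0.32, -0.17 and -0.21 in DN, 0.07, -0.05 and -0.02 in DP, 0.09, 0.11 and -0.06 in CD4SP and 0.38, -0.03 and 0.13 in CD8SP. Its DN arrays were lowest and the F test called it (adjusted p = 0.0425), but none of the 4 comparisons did.

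Proteins that carry a Gpr name but sit in inner membranes or lie outside the usual receptor classes numbered 9. Gpr155, a cholesterol sensor of the lysosome, read -0.25, 0.06 and 0.09 in DN, -0.06, -0.16 and 0.22 in DP, 1.79, 1.60 and 1.65 in CD4SP and 1.43, 1.76 and 1.80 in CD8SP. DN overlapped DP and CD4SP overlapped CD8SP, with a clear step between the pairs: 1.68 ± 0.14 in CD4SP (3.2-fold, limma adjusted p = 5.03e-06) and 1.66 ± 0.14 in CD8SP (adjusted p = 4.89e-06). Gpr89, an anion channel that keeps the Golgi acid, was high in DN alone, at 0.61, 0.67 and 0.57, against -0.13, 0.14 and -0.01 in DP, -0.07, -0.18 and -0.07 in CD4SP and 0.02, 0.16 and 0.20 in CD8SP. It fell by 0.61 from DN to DP (SE 0.09, adjusted p = 2.98e-04).

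Gpr107 and its relative Gpr108, both of the Golgi and its transport vesicles, were lower in DN than in DP. Gpr107 read -0.66, -0.69 and -0.56 in DN, 0.08, -0.04 and -0.05 in DP, 0.02, 0.10 and -0.06 in CD4SP and -0.27, -0.20 and -0.22 in CD8SP. Gpr108 read -0.43, -0.30 and -0.34 in DN, -0.06, -0.06 and 0.12 in DP, 0.43, 0.56 and 0.60 in CD4SP and -0.40, -0.03 and -0.11 in CD8SP. From DN to DP they rose by 0.64 ± 0.08 (limma adjusted p = 7.78e-05) and 0.35 ± 0.11 (adjusted p = 0.0229), the latter lost without DN replicate 1 or 3 or DP replicate 3 (0.00537 to 0.211). Gpr108 rose further in CD4SP, by 0.53 ± 0.11 (adjusted p = 0.00279), with CD4SP above all other arrays. Gpr107 fell slightly in CD8SP, with a difference of -0.23 ± 0.08 (limma adjusted p = 0.0326). That call was lost when any of the 3 DP or 3 CD8SP arrays was left out (adjusted p 0.0294 to 0.535 over the alternatives). On the Gpr107 probe set with the highest mean the difference was 0.29, but that choice favours probe sets that read high outside DP. Gpr143, the melanosome receptor, rose from DN to DP by 0.39 ± 0.09 (adjusted p = 0.00545), and Gpr180 rose from DP to CD8SP by 0.49 ± 0.14 (adjusted p = 0.0177), which was lost without DP replicate 1 or CD8SP replicate 3 (0.00113 to 0.315). Gpr137b, a lysosomal membrane protein, fell in CD8SP by 0.62 (SE 0.14, adjusted p = 0.00438), but only some of its 4 probe sets were called and it has a near copy, Gpr137b-ps, so its value is uncertain. The remaining 2, Gpr137 and Gpr137c, passed no test.

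The 31 other class A receptors, most of them known from brain or endocrine tissue, had 8 called from DN to DP (36.6% of all genes were), 3 from DP to CD4SP (32.7% of all genes) and 4 from DP to CD8SP (39% of all genes). The exception in size was Gpr162, an orphan of the brain, which read -2.64, -3.13 and -3.20 in DN, -0.14, -0.01 and 0.15 in DP, -3.32, -3.06 and -2.96 in CD4SP and -3.09, -3.65 and -3.49 in CD8SP. DP stood alone above the other subsets, which overlapped. Gpr162 rose from DN to DP by 2.99 ± 0.18 (7.95-fold, limma adjusted p = 6.58e-07) and fell again to -3.11 ± 0.18 in CD4SP (8.65-fold, adjusted p = 3.73e-07) and -3.41 ± 0.18 in CD8SP (10.6-fold, adjusted p = 1.88e-07). Its close relative Gpr153 had another pattern, at 0.04, -0.45 and 0.05 in DN, 0.17, -0.02 and -0.15 in DP, 1.05, 0.63 and 0.99 in CD4SP and 0.39, 0.56 and 0.25 in CD8SP. CD4SP lay above all other arrays of Gpr153, and its rise from DP was 0.89 ± 0.16 (adjusted p = 0.00148).

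Gpr27, Gpr85 and Gpr173 form a family conserved in vertebrate brain, and its members moved differently. Gpr27 was low in DP, falling from DN by 0.68 (SE 0.17, limma adjusted p = 0.00793) and rising by 0.82 ± 0.17 in CD4SP (adjusted p = 0.00314) and 1.02 ± 0.17 in CD8SP (adjusted p = 5.93e-04). Gpr173 and Gpr85 were low in DN and rose to DP by 0.55 ± 0.13 (adjusted p = 0.00613) and 0.43 ± 0.15 (adjusted p = 0.0486). The Gpr85 call was lost in 13 of 24 alternatives, among them the omission of DN replicate 1 or 2, any DP array, CD4SP replicate 2 or CD8SP replicate 1 (adjusted p 0.028 to 0.921). The Gpr85 difference turned to -0.05 on the probe set with the highest mean, but that choice favours probe sets that read high outside DP. Of the 4 Gpr85 probe sets, only that with a difference of 1.25 was called (limma adjusted p = 0.0362 over probe sets). The others gave 0.37, -0.05 and 0.14 (adjusted p = 0.0902, 0.917 and 0.411). Gpr149 rose from DN to DP by 1.02 ± 0.34 (adjusted p = 0.0357), but its DN arrays, at -1.26, -1.73 and -0.07, overlapped DP. Neither of its 2 probe sets was called alone (limma adjusted p = 0.0732 and 0.136 over probe sets). The Gpr149 call was lost in 9 of 24 alternatives, among them the omission of DN replicate 1 or 2 or DP replicate 2 or 3 (3.54e-04 to 0.199). Gpr1, a chemerin receptor, rose by 0.37 ± 0.10 (adjusted p = 0.0147), a call lost without DN replicate 2 or DP replicate 2 (0.00393 to 0.178). The melatonin-receptor relative Gpr62 fell from DN to DP by 0.39 (SE 0.12, adjusted p = 0.0277) and rose to CD8SP by 0.67 ± 0.12 (adjusted p = 0.00111), and Gpr63 fell by 0.41 and rose to CD8SP by 0.41 (SE 0.13 each, adjusted p = 0.0298 and 0.0284). The Gpr62 fall was lost without DN replicate 2 or 3 or any DP array (0.0138 to 0.215). The Gpr63 fall was lost without DN replicate 1 or 3 or DP replicate 2 or 3 (0.0108 to 0.391), and its rise without DP or CD8SP replicate 2 or 3 (0.00196 to 0.42).

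Of the 2 class C members, Gpr179, known from the retina, was low in DP. It read 1.44, 1.56 and 0.98 in DN, -0.48, 0.62 and -0.15 in DP, 0.99, 1.26 and 1.18 in CD4SP and 1.70, 1.47 and 1.30 in CD8SP, and every DP array lay below all others. DP minus DN was -1.32 ± 0.25 (limma adjusted p = 0.00171), and the rises from DP were 1.14 ± 0.25 in CD4SP (adjusted p = 0.00472) and 1.49 ± 0.25 in CD8SP (adjusted p = 7.23e-04). Gpr158, a glycine receptor of neurons, passed no test.

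**Figure D3:**
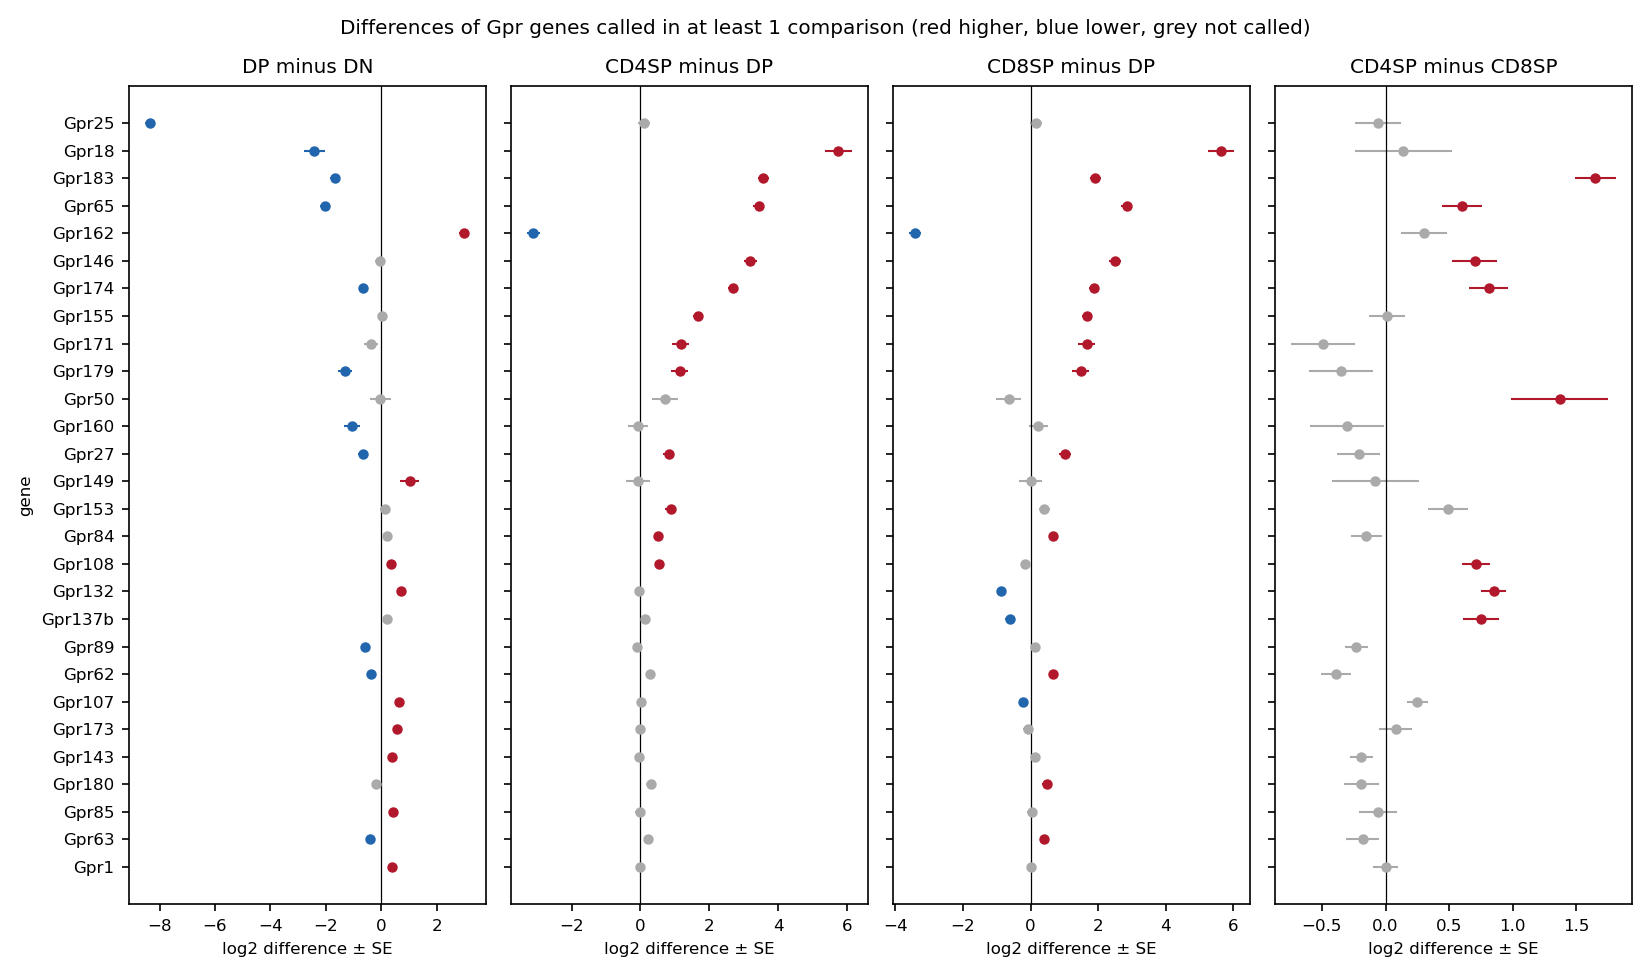
Log2 difference ± SE (x axis) of the 28 Gpr genes called in at least 1 of the 4 comparisons (rows), 1 panel per comparison with its own scale, coloured where called. In CD4SP minus DP 12 points are coloured as rises and Gpr162 is the only one coloured as a fall. In CD8SP minus DP 13 are coloured as rises and 4 as falls, and all 8 coloured points of CD4SP minus CD8SP lie on the higher side.

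Set against the whole array, 20 members were called between DN and DP (36.6% of all genes): 9 members rose from DN to DP (17.8% of all genes did) and 11 fell (18.8%), and 8 of the called members differed at least 2-fold (8.42%). The arrays of DN and DP did not overlap for 29 members (49.8% of all genes). The median difference of the members was 0.11, against 0.04 over all genes, and the median size of a difference 0.30 against 0.28. The counts in either direction lie close to the background, and the share of members called and at least 2-fold apart, 13.8%, lies above its 8.42%.

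From DP to CD4SP, 13 members were called (32.7% of all genes): 12 rose (16.4% of all genes) and 1, Gpr162, fell (16.2% of all genes), with 9 called members at least 2-fold apart (8.77%). The subsets' arrays did not overlap for 18 members (49.4%). From DP to CD8SP, 17 members were called (39% of all genes): 13 rose (18.2%) and 4 fell (20.9%), with 10 at least 2-fold apart (9.56%) and 21 without overlap (48.6%). Both comparisons use the same DP arrays, so the rises in them are not independent. The members' median differences were 0.08 and 0.08, against 0.04 and 0.00 over all genes, and the median size of a difference was 0.18 against 0.25 in CD4SP and 0.24 against 0.29 in CD8SP. The rises were thus carried by a few receptors with large differences, named above, while most members stayed near 0.

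Between the single-positive subsets, 8 members were called (12.7% of all genes): 8 were higher in CD4SP (7.78% of all genes) and 0 were higher in CD8SP (4.91% of all genes), with 2 at least 2-fold apart (1.79%) and 19 without overlap (30.3%). Gpr183 differed most, by 1.65 ± 0.16 (3.14-fold, limma adjusted p = 1.18e-04). Gpr132 was higher by 0.85 ± 0.10 (adjusted p = 5.88e-04), Gpr174 by 0.81 ± 0.15 (adjusted p = 0.00521) and Gpr108 by 0.71 ± 0.11 (adjusted p = 0.0018), and the arrays of the subsets did not overlap for any of these. Gpr137b was higher by 0.75 ± 0.14 (adjusted p = 0.00507), with the doubt about its copy given above. For Gpr146 the difference was 0.70 ± 0.18 (adjusted p = 0.0263), a call lost when any of the 6 single-positive arrays was left out (3.83e-04 to 0.263 over the alternatives). Gpr65 differed by 0.60 ± 0.16 (adjusted p = 0.0342), lost without DN replicate 2, CD4SP replicate 1 or 3 or any CD8SP array (0.0147 to 0.895). Gpr50, a relative of the melatonin receptors, had a difference next in size to that of Gpr183, 1.37 ± 0.38 (adjusted p = 0.0389), from -0.01, 0.99 and 1.18 in CD4SP against -0.67, -0.08 and -1.19 in CD8SP. Neither of its 2 probe sets was called alone (adjusted p = 0.658 and 0.182), and the call was lost without DN replicate 2 or 3, DP replicate 1, CD4SP replicate 2 or 3 or CD8SP replicate 1 or 3 (0.0174 to 0.798). The count of 8 fell to 5 without CD4SP replicate 3 and to 5 without CD8SP replicate 3, and the count of 0 became 1 without CD4SP replicate 2.

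In all, 28 members were called in at least 1 comparison, 2 more, Gpr33 and Gpr165, by the F test alone, and 28 in neither way. The group means of these last 28 lay between 0.11 and 0.86 units apart. They include Gpr3, Gpr6 and Gpr12, which are constitutively active receptors that raise cyclic AMP, and Gpr161, a receptor of the primary cilium. With levels lost, it cannot be said which of them are expressed in thymocytes. The members' median within-group SD was 0.209, from 0.0668 for Gpr107 to 0.622 for Gpr137c, against 0.162 over all genes. The medians are not like for like, since averaging over probe sets can lower the SD. Of the 58 members 38 have 1 probe set, against 9183 of all 18193 genes. None of the 20 members with several probe sets had probe sets called in opposite directions in any comparison, but only some were called for 8 of them from DN to DP, for 0 from DP to CD4SP, for 5 from DP to CD8SP and for 3 between CD4SP and CD8SP.

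**Figure D4:**
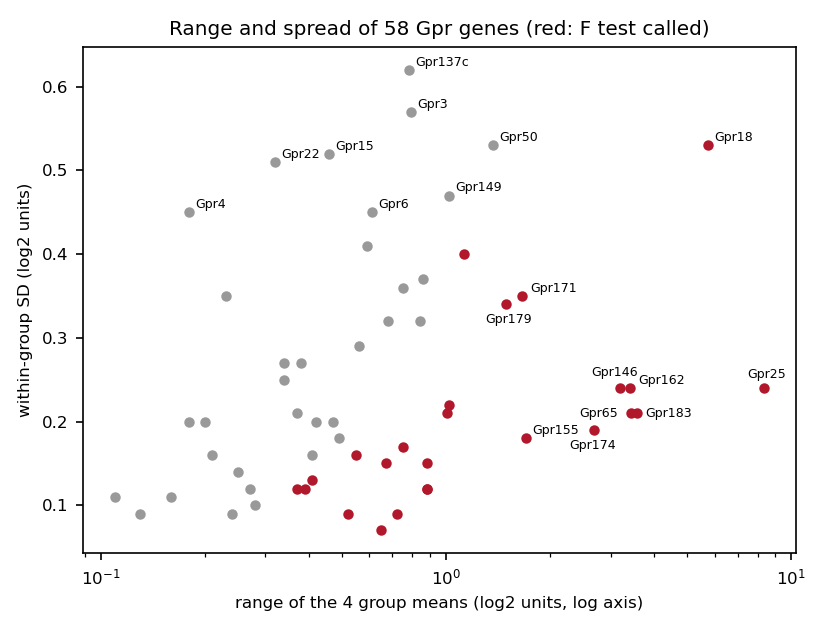
Within-group SD (y axis, log2 units) against the range of the 4 group means (x axis, log2 units, log scale) for the 58 Gpr genes, red where the F test was called. Gpr25 has the widest range, 8.34, at a moderate spread, while Gpr137c, with the largest SD of 0.622, was not called.

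The proteins that take up the receptors' signal were read from a list of G protein subunits, arrestins, receptor kinases, adenylyl cyclases and cyclic AMP effectors, 65 of them measured. From DN to DP 17 rose and 12 fell, from DP to CD4SP 14 rose and 8 fell, from DP to CD8SP 14 rose and 11 fell, and between CD4SP and CD8SP 5 were higher and 3 lower in CD4SP. Over all genes 17.8% rose and 18.8% fell, 16.4% and 16.2%, 18.2% and 20.9%, and 7.78% and 4.91% in the same order. Their median differences were 0.16, 0.13, 0.02 and 0.03, against 0.04, 0.04, 0.00 and 0.03 over all genes. The 17 rises fell to 10 without DN replicate 2 and to 11 without DP replicate 2, and the 8 falls to 5 without DP replicate 1 and to 5 without CD4SP replicate 3. The counts between CD4SP and CD8SP were the least steady, at 1 to 3 higher without DN, DP or CD8SP replicate 2 or any CD4SP array, and 1 lower without CD4SP replicate 2 or 3 or CD8SP replicate 3. Among 15 G alpha subunits, Gnaq, which couples receptors to phospholipase C, differed by -0.75 ± 0.13 between DN and DP (limma adjusted p = 8.88e-04), though its probe set with the smallest spread gave 0.01. Gnai2, the main inhibitory subunit of lymphocytes, rose from DN to DP by 0.48 ± 0.10 (limma adjusted p = 0.003), and Gnai3, another inhibitory subunit, differed by -0.52 ± 0.08 from DP to CD8SP (adjusted p = 6.14e-04). Of 16 beta and gamma subunits, Gng2 changed most, at 0.56, 1.96 and 2.03 in DN, -0.26, 0.48 and -0.22 in DP, 3.40, 3.46 and 3.59 in CD4SP and 2.78, 3.50 and 3.57 in CD8SP. Like Gpr18 and Gpr183, Gng2 was lowest in DP, and it rose by 3.48 ± 0.37 in CD4SP (adjusted p = 3.18e-05) and 3.28 ± 0.37 in CD8SP (adjusted p = 4.20e-05). Gng12 was higher in CD4SP than in CD8SP by 0.94 ± 0.10 (adjusted p = 1.71e-04).

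Of 9 arrestins and receptor kinases, 4 rose and 0 fell from DP to CD4SP, where 16.4% of all genes rose and 16.2% fell. From DP to CD8SP 4 rose and 0 fell, where 18.2% of all genes rose and 20.9% fell. Arrb2, a beta-arrestin, read -0.14, 0.21 and 0.36 in DN, 0.20, -0.05 and -0.15 in DP, 1.91, 1.95 and 1.85 in CD4SP and 2.11, 2.33 and 2.08 in CD8SP. Its rises were 1.90 ± 0.14 (limma adjusted p = 1.66e-06) and 2.17 ± 0.14 (adjusted p = 5.71e-07), and the kinase Grk6 rose by 0.96 ± 0.09 and 0.95 ± 0.09 (adjusted p = 1.13e-05 for each). Among 10 adenylyl cyclases, Adcy7 rose by 1.38 ± 0.15 in CD4SP (adjusted p = 3.39e-05) and 1.71 ± 0.15 in CD8SP (adjusted p = 6.07e-06), while Adcy6 rose from DN to DP by 1.17 ± 0.13 (adjusted p = 3.62e-05) and fell by 0.83 in CD8SP (SE 0.13, adjusted p = 3.70e-04). Among 15 cyclic AMP effectors, the phosphodiesterase Pde3b rose by 1.82 ± 0.11 in CD4SP and 1.88 ± 0.11 in CD8SP (adjusted p = 4.98e-07 and 3.62e-07). Rapgef3, the cyclic AMP-activated exchange factor EPAC, read -0.48, -0.32 and -0.22 in DN and -0.18, 0.03 and 0.15 in DP, but -6.64, -6.88 and -6.26 in CD4SP and -6.80, -7.03 and -6.76 in CD8SP. The differences from DP were -6.60 ± 0.16 and -6.87 ± 0.16 (adjusted p = 7.20e-10 and 6.35e-10), the largest change of any listed partner.

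A second list held 29 measured receptors that once had orphan numbers and are now named by ligand or class. From DN to DP 7 rose and 4 fell, from DP to CD4SP 5 rose and 5 fell, and from DP to CD8SP 5 rose and 6 fell. The shares of all genes that rose and fell were 17.8% and 18.8%, 16.4% and 16.2%, and 18.2% and 20.9% in the same order. Median differences of the 29 receptors were 0.18, -0.05 and -0.15. The adhesion receptor Adgrg3 was low in DP, falling from DN by 2.16 (SE 0.18, limma adjusted p = 6.12e-06) and rising by 2.66 ± 0.18 in CD4SP (adjusted p = 1.24e-06) and 2.42 ± 0.18 in CD8SP (adjusted p = 2.25e-06). Adgre5, or CD97, was high in DP: it rose from DN by 2.63 ± 0.14 (adjusted p = 2.33e-07) and fell, by -1.33 ± 0.14 in CD4SP and -1.36 ± 0.14 in CD8SP (adjusted p = 2.42e-05 and 1.79e-05). Lpar6, a lysophosphatidic acid receptor, also rose to DP, by 1.71 ± 0.18 (adjusted p = 3.59e-05), and fell, by -1.44 ± 0.18 in CD4SP and -1.26 ± 0.18 in CD8SP (adjusted p = 1.26e-04 and 2.77e-04).

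Several members lie beside one another or beside other receptors in the RefSeq order of genes of GRCm38.p6. For the 13 members with an F call and a 2-fold range, 31 pairs with a neighbour were measured. The neighbour was called in 17 pairs from DN to DP, 15 from DP to CD4SP, 14 from DP to CD8SP and 8 between CD4SP and CD8SP. Over all genes 36.6%, 32.7%, 39% and 12.7% were called. Ubac2 was counted for both Gpr18 and Gpr183, and those members were counted as each other's neighbours. Both members had been picked for an F call and a wide range, so the counts cannot be set directly against these shares. Gpr18 and Gpr183 are next to each other on chromosome 14, both inside the span of Ubac2. Ubac2, a protein of the endoplasmic reticulum, rose by 0.87 ± 0.16 in CD4SP (limma adjusted p = 0.00156) and by 0.87 ± 0.16 in CD8SP (adjusted p = 0.00135), and DP minus DN was -0.04 ± 0.16 (adjusted p = 0.873). Gpr174 on chromosome X lies between P2ry10b and Itm2a. Itm2a, a membrane protein induced during thymocyte selection, rose by 3.74 ± 0.10 in CD4SP (adjusted p = 1.35e-09) and 1.52 ± 0.10 in CD8SP (adjusted p = 7.13e-07), and P2ry10b was called against DP in neither (0.30 ± 0.14 and -0.31 ± 0.14, adjusted p = 0.144 and 0.116).

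Gpr171 on chromosome 3 lies inside Med12l, next to the UDP-sugar receptor P2ry14. P2ry14 rose in CD4SP by 1.57 ± 0.39 (limma adjusted p = 0.00974) and read -0.55 ± 0.39 in CD8SP minus DP (adjusted p = 0.298), so that CD4SP stood above CD8SP by 2.12 ± 0.39 (adjusted p = 0.00532), where Gpr171 was not called. Gpr162 on chromosome 6 lies next to Cd4, which the sort selected on. Cd4 rose from DN to DP by 5.22 ± 0.50 and fell by 8.90 in CD8SP (SE 0.50, adjusted p = 2.75e-07), but its CD4SP minus DP difference of -0.64 ± 0.50 was not called (adjusted p = 0.374), whereas Gpr162 fell in both single-positive subsets. The neighbour on its other side, P3h3, was called in none of the 4 comparisons. Gpr27, also on chromosome 6, overlaps Eif4e3, which rose from DN to DP by 1.47 ± 0.11 (adjusted p = 3.52e-06) where Gpr27 fell. It is not stated whether the probes of overlapping genes tell them apart.

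**Figure D5:**
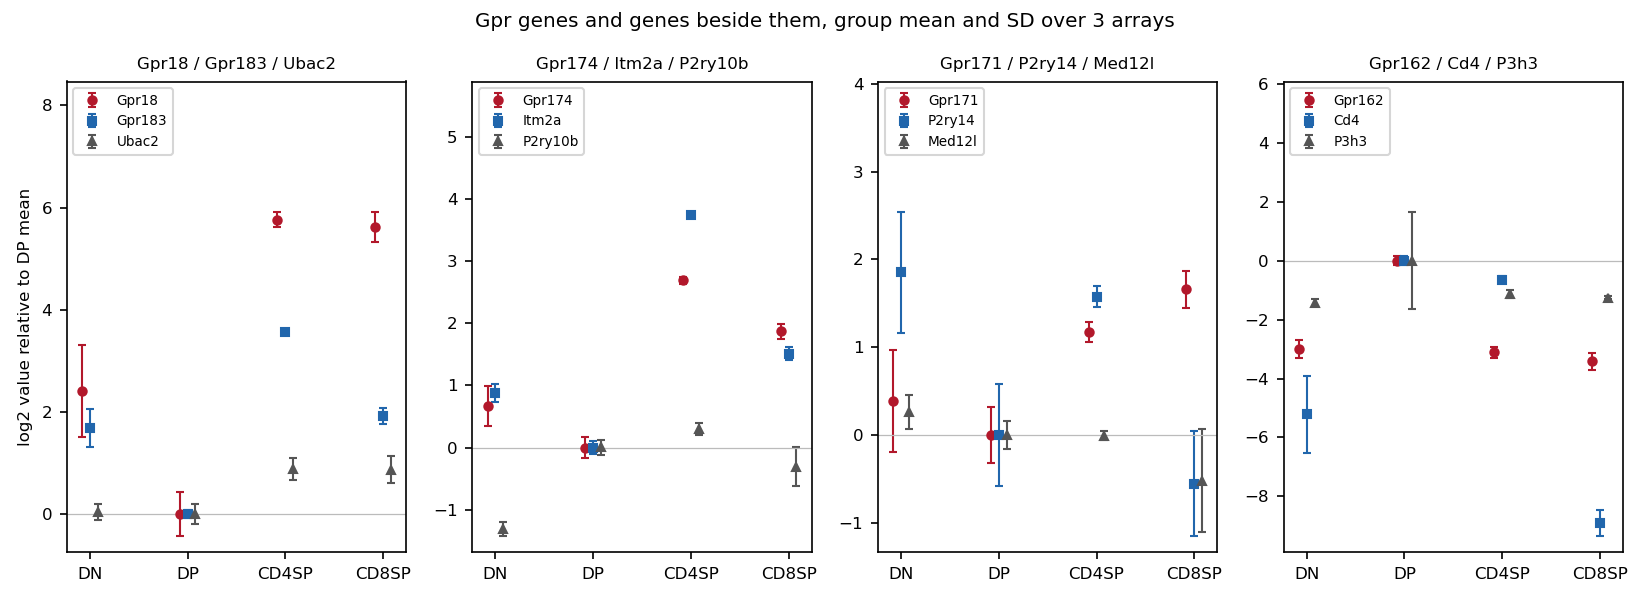
Mean and SD over 3 arrays of the log2 value relative to DP for 4 sets of genes that lie side by side, by subset; each panel has its own scale. Gpr18 and Gpr183 rise far more than Ubac2 around them (0.87 in both single-positive subsets), Itm2a is high beside Gpr174, and Gpr162 is low in CD4SP where its neighbour Cd4 stays near its DP value.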

How the data were processed

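Arrays were assigned to subsets, and replicate numbers read, from their titles. The authors deposited log2 values, as far as can be told, since the base of the log is not stated: 1 value per probe set and array (45101 probe sets, -9.94 to 10.28, 0 missing). The submitters' processing notes list MAS5 with no version and no role. Each probe set averages to 0 over the DP arrays (largest absolute mean 1.27e-06), so dim probe sets could not be filtered. Array medians lay between -0.10 and 0.05 and were left as they were.

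The platform annotation gave 34958 probe sets 1 symbol, 932 several and 9211 none. Without 64 control probe sets, 34945 were averaged to 18193 genes, and all 58 member symbols matched RefSeq by gene ID. A single limma 3.58.1 model (R 4.3.3; lmFit, contrasts.fit, eBayes) took in the 4 subsets, with Benjamini-Hochberg adjustment over all genes, and the script was tested on simulated data. Values per array were set for the lipid, proton and leukocyte receptors and the 15 members with the lowest F test p. Called members are named by size, at most 10 each way, and partners by lowest adjusted p, at most 4 per list. Other values by array, and other partners and neighbours named, were picked after seeing them. The members and lists were chosen with earlier results of these data known. Alternatives changed the scaling, the probe set summary, the moderation, the arrays and the replicate block.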

Additional observations from a re-analysis of the deposited data

Results flagged for a closer look

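These 8 receptors and receptor-like genes differed between the single-positive subsets, which share the contrast with DP, by the test of CD4SP minus CD8SP itself. In log2 units CD4SP was higher by 1.65 for Gpr183, 1.37 for Gpr50, 0.85 for Gpr132, 0.81 for Gpr174, 0.75 for Gpr137b, 0.71 for Gpr108, 0.70 for Gpr146 and 0.60 for Gpr65. For Gpr183 the call held in all 24 alternatives, and for Gpr132, Gpr174 and Gpr108 it was lost under quantile normalization alone. The Gpr137b call was lost in 3 alternatives, that of Gpr146 in 8, that of Gpr65 in 11 and that of Gpr50 in 13. Gpr132 and Gpr137b fell from DP in CD8SP, and their CD4SP differences from DP, -0.04 and 0.14, were not called. Over the same arrays 3 of 7 NK and innate lymphoid genes (Nkg7, Klrd1 and Eomes) were higher in CD8SP and 4 were not called. Of 5 regulatory T cell genes, 3 (Ctla4, Tnfrsf18 and Il2ra) were higher in CD4SP, Ikzf2 was lower by -0.59 and Foxp3 was not called. The part of such cells in these differences was not tested.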

How the results depend on the processing

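The 58 called differences of the members were refitted under 24 alternatives each, 1392 in all: 1266 kept direction and call, 124 kept the direction and lost the call, and 2 reversed. Of the 58, 24 kept their call under all 24 and 15 lost it under quantile normalization alone. These 15 hold every call of Gpr27, Gpr171 and Gpr179, with limma adjusted p up to 0.448, 0.168 and 0.58. Where lost calls are listed by array for a gene, losses under other alternatives are not listed, but the p range given covers them. Quantile normalization spreads the centred DP arrays, raising their median within-group SD from 0.124 to 0.369. Under it the members' counts went to 3 higher and 4 lower from DN to DP, 8 and 2 from DP to CD8SP, 1 higher in CD4SP than in CD8SP, and 13 by the F test. With the probe set of highest mean for each gene, 5 rose from DN to DP and 2 fell to CD8SP. Because values are centred on DP, that choice does not pick the brightest probe set but favours those that read high outside DP. It works against rises from DN to DP and falls from DP by design, and in favour of falls from DN to DP and rises from DP. It therefore cannot test how steady any of these calls are, and a call kept under it gains no support. With array weights 8 fell to CD8SP, and 1 was lower in CD4SP than in CD8SP, as with equal array medians and without DN replicate 1 and CD8SP replicate 1 together. Leaving out 1 array at a time gave 6 to 11 higher and 8 to 12 lower from DN to DP, 12 to 13 and 1 to 1 for CD4SP, 12 to 14 and 3 to 6 for CD8SP, 5 to 8 and 0 to 1 between the single-positive subsets, and 23 to 28 by the F test.

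For the 65 partners, quantile normalization gave 4 higher and 5 lower from DN to DP, 7 and 3 for CD4SP, 7 and 4 for CD8SP, and 1 and 0 between the subsets. The highest-mean probe sets, with the limit given above, gave 4 lower for CD4SP, 6 lower for CD8SP, and 3 and 1 between the subsets. Without _s_at and _x_at probe sets these last were 8 and 1, with array weights 8 higher, and with only the 6 arrays compared 1 higher. Leaving out 1 array gave 10 to 19 and 9 to 14 from DN to DP (10 without DN replicate 2 and 11 without DP replicate 2), 13 to 15 and 5 to 9 for CD4SP, 12 to 16 and 9 to 12 for CD8SP, and 1 to 6 and 1 to 4 between the subsets. Of the 84 called differences of partners, 1767 of 2016 refits kept direction and call and 7 reversed, and of 28 called differences of other named receptors and neighbours 0 reversed and 7 of 672 refits lost the call. Reversals occurred for Gpr85 from DN to DP (-0.05) and for Gpr107 (0.29), Gna13 (0.09) and Gnb1 (0.07) in CD8SP and Gnb5 (-0.01) from DN to DP with the highest-mean probe set. All of these lie in the direction that the highest-mean choice favours, so they do not measure how steady the calls are. The probe sets of Gpr85 differed all the same, as given above. With the probe set of smallest spread, Gnaq turned to 0.01 and Grk3 to 0.12 from DN to DP and Arr3 to -0.09 in CD8SP, and Grk3 was again 0.12 without _s_at and _x_at probe sets. The causes of changed calls were not tested. With the replicate number as a block, the members' counts were 10 and 11, 13 and 1, 13 and 5, 8 and 0, and 26 by the F test. The arrays were treated as sharing only a number, since same-numbered arrays of different subsets correlated in their deviations at -0.03 to 0.16 (median 0.08, 18 pairs), not all above 0.1. The 6 pairs numbered 1 lay at 0.11 to 0.16, above every pair of different numbers, which lay at -0.16 to 0.08 (median -0.05). The main fit takes no account of this likeness among the arrays numbered 1.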
